A study of Mus musculus with 32 samples.

Results

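The genes described here were 36 cell cycle and mitosis genes, taken as a list by symbol (Mki67, Top2a, the cyclins Ccna2, Ccnb1 and Ccnb2, their kinase Cdk1, the replication helicase subunits Mcm2 to Mcm7, kinetochore, spindle and checkpoint genes). All 36 were found among the 24646 genes measured in each of 4 tissues of Gpr146 knockout (KO) and wild-type (WT) littermates. No gene was chosen by a threshold on its value, but the list was chosen with earlier results of these data known. Gpr146 encodes an orphan G protein-coupled receptor. The mice were male, 20 weeks old and of C57BL/6J background, and all of them, WT and KO, had been fed a high fat diet (HFD) for 3 months and fasted overnight before liver, epididymal white fat (eWAT), inguinal white fat (iWAT) and brown fat (BAT) were collected. The KO group lacked Gpr146 in the whole body, so a difference in a tissue cannot be assigned to the receptor in that tissue. Each tissue was hybridised to Affymetrix Mouse Gene 2.1 ST arrays from 4 WT and 4 KO mice, 32 arrays in all, and the values are log2 intensities, deposited as 1 table per tissue. A log2 change is the KO mean minus the WT mean, so that a negative change is a lower level in KO.

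A cell that is going to divide passes from G1 into S phase, when the DNA is copied, then through G2 into mitosis (M phase), when the copies are pulled apart. Genes of DNA copying are switched on by E2F factors at the start of S phase, and genes of mitosis later by complexes that bind a CCAAT box and a cell cycle genes homology region (CHR), so that in a tissue the transcripts of both groups mark cells in cycle. In adult liver and fat few cells cycle. In the white fat of obese mice, macrophages are known to divide locally, as do some progenitor, endothelial and immune cells, and in iWAT a lymph node lies within the depot.

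The samples expressed the defining genes of their tissue, with WT means of 8.15 in eWAT and 8.43 in iWAT for Adipoq, 11.47 in BAT for Ucp1 and 11.90 in liver for Alb. Gpr146 itself was lower in all 4 KO mice than in any WT mouse of each tissue. Its log2 change was -1.77 ± 0.09 (SE, adjusted p = 6.55e-06) in liver, -1.53 ± 0.22 (adjusted p = 0.00823) in eWAT, -1.55 ± 0.33 (adjusted p = 0.221) in iWAT and -1.16 ± 0.18 (adjusted p = 0.0727) in BAT, by limma with Benjamini-Hochberg adjustment over all genes of a tissue. Where the probes lie relative to the deleted part was not examined here. The titles of the liver KO samples name both genotypes, while their other labels say KO, and Gpr146 went with the KO label. Array medians within a tissue were close (3.65 to 3.73 in iWAT, the widest range), and the lowest correlation between arrays was 0.94, in iWAT. A gene is called below where its adjusted p was under 0.05.

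In eWAT of KO mice the cell cycle genes fell together. Of the 36 members, 29 (80.6%) were called lower and none higher, against 10.7% of all genes called lower and 4.57% called higher in that depot. In each of the 29 all 4 KO mice lay below all 4 WT mice, an arrangement found for 13% of all genes. The KO level of the 29 was between 26.3% and 76.9% of WT on the linear scale, with a median of 48.8%. The log2 change had a median of -0.92 over the 36 members and of 0.03 over all genes, and 35 of the 36 were negative. The count was 16 without WT mouse 2 and 19 without KO mouse 1, and between 20 and 28 when any other mouse was left out. By the methods' t-test 29 members had a p under 0.05 without adjustment and none with it, where 38 of all genes passed. The share of all genes under 0.05 by that test without adjustment was not computed. By limma without adjustment 31 members were lower at that level and 0 higher, against 4289 lower and 3049 higher of the 24646 genes. In liver, iWAT and BAT no member was called.

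**Figure D1:**
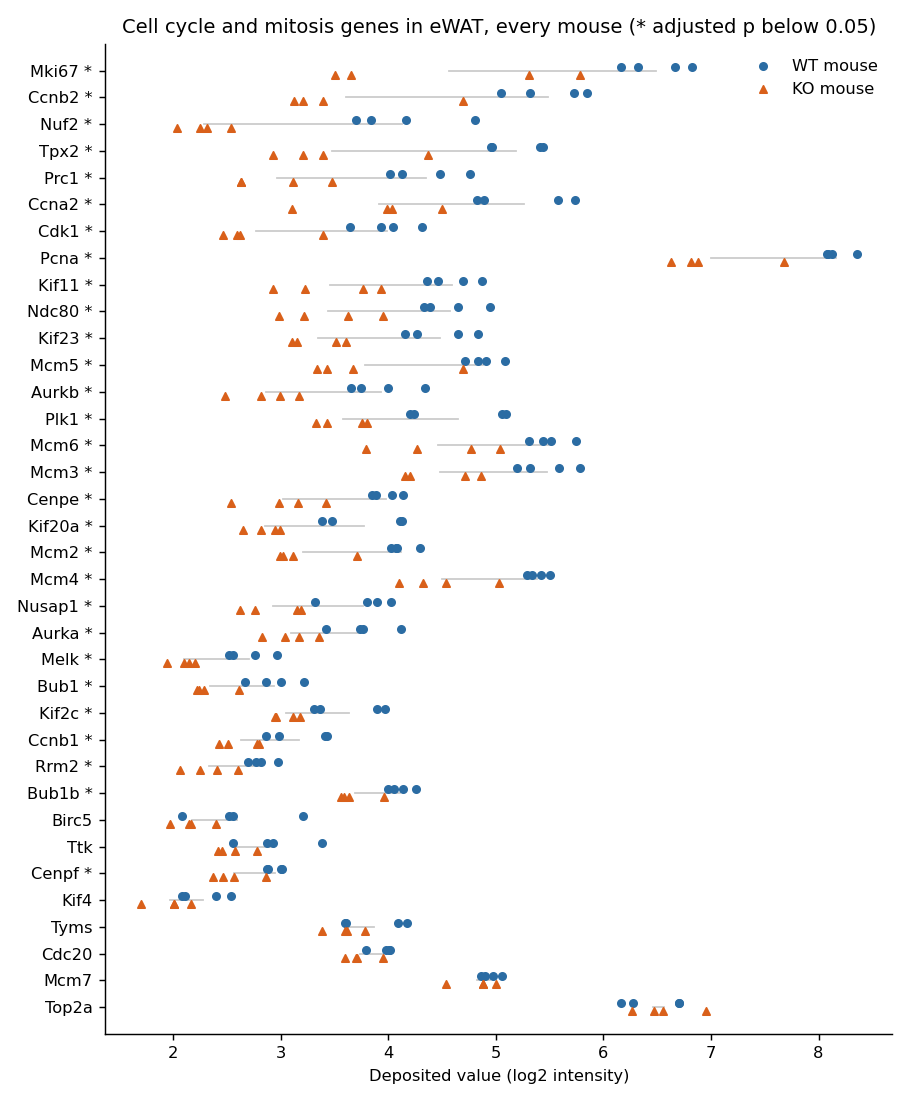
Log2 intensity of the 36 cell cycle and mitosis genes in eWAT (x axis, deposited values), 1 row per gene in order of the log2 change, with circles for the 4 WT mice, triangles for the 4 KO mice, a grey line joining the group means and a star for an adjusted p below 0.05. The triangles lie left of the circles without overlap in the 29 starred rows, and Top2a at the bottom is the gene with a positive change (0.10).

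The promoters of these genes are shown first, so that the letters of the searched motifs can be read in them. Whether the motifs have a part in the fall was not tested. Of the 36 members 31 were found in a RefSeq table of promoters (GRCm38.p6, 300 bases from 250 before the annotated start). The letters CCAAT, on either strand, stood in 24 of the 31 (77.4%) and in 41.1% of all 27025 genes in the table. The CHR letters TTTGAA stood in 17 (54.8%) and in 20.2% of all genes, and both together in 15 (48.4%) and in 7.97%. The variant TTTAAA was found in 10 (32.3%) and in 14.9% of all genes. At least 1 of the E2F letters TTTCGCGC, TTTGGCGC, TTTCCCGC and TTCGCGCC (motifs that can overlap one another) stood in 5 members (16.1%), Cdk1, Mcm3, Mcm5, Mcm6 and Mcm7, and in 2.54% of all genes. These are counts of letters in a window, with no test. Of the 15 with both, 11 were called lower in eWAT (not Cdc20, Kif4, Top2a and Ttk), and 13 of the other 16 were.

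The 3 promoters with both CCAAT and TTTGAA are given for the members with the smallest adjusted p in eWAT that hold them, Kif23 (chr9:61946750-61947049, minus strand), Prc1 (chr7:80294201-80294500, plus strand) and Mcm2 (chr6:88898731-88899030, minus strand), each 5′ to 3′ along the gene. Capitals mark the motifs searched, CCAAT (or ATTGG on the other strand) and TTTGAA.
Kif23: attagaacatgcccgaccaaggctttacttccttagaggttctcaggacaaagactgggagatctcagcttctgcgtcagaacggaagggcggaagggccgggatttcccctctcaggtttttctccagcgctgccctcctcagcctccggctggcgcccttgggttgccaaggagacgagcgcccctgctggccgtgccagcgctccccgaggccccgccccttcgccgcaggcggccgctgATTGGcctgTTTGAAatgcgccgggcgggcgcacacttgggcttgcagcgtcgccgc
Prc1: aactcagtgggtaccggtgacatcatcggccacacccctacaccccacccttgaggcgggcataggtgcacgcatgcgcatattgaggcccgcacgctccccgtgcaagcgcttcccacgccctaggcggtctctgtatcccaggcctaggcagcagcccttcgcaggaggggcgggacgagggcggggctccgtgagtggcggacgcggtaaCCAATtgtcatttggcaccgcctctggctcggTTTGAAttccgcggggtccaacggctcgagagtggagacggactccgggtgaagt
Mcm2: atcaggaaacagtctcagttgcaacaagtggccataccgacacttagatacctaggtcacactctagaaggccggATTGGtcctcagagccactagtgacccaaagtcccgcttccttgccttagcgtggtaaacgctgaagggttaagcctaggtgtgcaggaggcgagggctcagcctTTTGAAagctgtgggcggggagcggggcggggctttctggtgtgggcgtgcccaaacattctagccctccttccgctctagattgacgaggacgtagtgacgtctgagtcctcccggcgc

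In Kif23 the CCAAT box began 7 bases before the annotated start and TTTGAA 2 bases after it. In Prc1 they began 37 and 5 bases before the start, and in Mcm2 175 and 70 bases before it. The replication genes Mcm3 (chr1:20820263-20820562, minus strand), Mcm6 (chr1:128359656-128359955, minus strand) and Mcm5 (chr8:75109259-75109558, plus strand) are given as the replication genes with the smallest adjusted p whose promoters hold an E2F motif, again with all searched motifs in capitals.
Mcm3: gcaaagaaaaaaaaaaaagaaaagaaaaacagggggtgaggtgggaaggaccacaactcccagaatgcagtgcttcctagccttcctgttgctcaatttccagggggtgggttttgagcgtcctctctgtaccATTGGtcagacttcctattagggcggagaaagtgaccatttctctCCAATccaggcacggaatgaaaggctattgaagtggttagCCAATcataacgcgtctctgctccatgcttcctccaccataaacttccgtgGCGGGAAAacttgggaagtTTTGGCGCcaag
Mcm6: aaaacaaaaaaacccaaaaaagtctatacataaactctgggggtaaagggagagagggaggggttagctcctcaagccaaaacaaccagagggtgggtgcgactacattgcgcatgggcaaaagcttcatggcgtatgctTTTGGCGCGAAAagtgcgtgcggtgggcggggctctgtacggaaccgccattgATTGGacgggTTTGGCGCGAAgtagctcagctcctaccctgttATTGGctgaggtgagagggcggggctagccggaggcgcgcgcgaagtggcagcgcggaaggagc
Mcm5: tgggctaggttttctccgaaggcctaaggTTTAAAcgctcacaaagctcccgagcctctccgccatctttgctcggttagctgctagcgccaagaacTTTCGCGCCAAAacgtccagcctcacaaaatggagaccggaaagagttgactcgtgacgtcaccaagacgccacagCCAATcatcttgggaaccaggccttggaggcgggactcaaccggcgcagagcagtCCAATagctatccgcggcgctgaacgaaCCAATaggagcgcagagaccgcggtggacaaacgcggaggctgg

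Of the 9 genes of DNA replication, 7 were called lower in eWAT. They were Pcna, the sliding clamp that holds DNA polymerase on its template, 5 subunits of the Mcm helicase, and Rrm2, a subunit of the reductase that makes deoxyribonucleotides. Pcna measured 8.08, 8.35, 8.09 and 8.13 in the WT mice and 6.81, 7.67, 6.88 and 6.62 in the KO mice, a log2 change of -1.16 ± 0.20 (SE, adjusted p = 0.0103). The KO mice were low in all 4, and the least so in mouse 2.

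Mcm5 was 4.91, 5.08, 4.71 and 4.83 in WT and 3.43, 4.69, 3.67 and 3.33 in KO, a log2 change of -1.10 (adjusted p = 0.0234). Mcm6 was 5.44, 5.74, 5.51 and 5.31 in WT and 4.26, 5.03, 4.76 and 3.79 in KO (-1.03, adjusted p = 0.0207). The highest KO value, again that of mouse 2, came close to the lowest WT value for Mcm5. Mcm3 was 5.59, 5.79, 5.31 and 5.20 in WT and 4.16, 4.86, 4.71 and 4.20 in KO (-0.99, adjusted p = 0.0122). Mcm2 was 4.08, 4.30, 4.07 and 4.03 in WT and 3.11, 3.71, 2.99 and 3.02 in KO (-0.91, adjusted p = 0.0102). In Mcm2, KO mouse 2 stood well above the other KO mice, which lay close together. Mcm4 was 5.41, 5.51, 5.29 and 5.33 in WT and 4.53, 5.03, 4.32 and 4.10 in KO (-0.89, adjusted p = 0.0131). Rrm2 had a smaller change, -0.48 (adjusted p = 0.0260). The remaining subunit of the helicase, Mcm7, had a log2 change of -0.12 (adjusted p = 0.476), and Tyms, which makes thymidylate, one of -0.27 (adjusted p = 0.266). Both overlapped between the genotypes.

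Of the 5 cyclins, Cdk1 and Cdc20, 4 were called. Cyclin B and cyclin A bind and activate Cdk1, the kinase that drives the cell into mitosis, and Cdc20 activates the ubiquitin ligase that ends it. Ccnb2 had one of the largest changes of all members. It was 5.85, 5.73, 5.05 and 5.32 in WT and 3.12, 4.70, 3.40 and 3.20 in KO, a log2 change of -1.88 ± 0.33 (SE, adjusted p = 0.0107). Ccna2 was 5.58, 5.74, 4.83 and 4.88 in WT and 3.99, 4.50, 4.04 and 3.11 in KO (-1.35, adjusted p = 0.0194). Its WT mice fell into a higher pair (1 and 2) and a lower pair (3 and 4), and the same pairs of WT mice were seen in Ccnb2. Cdk1 was 4.04, 4.32, 3.93 and 3.64 in WT and 2.62, 3.39, 2.46 and 2.60 in KO (-1.22, adjusted p = 0.0103). Ccnb1 changed by -0.54 (adjusted p = 0.0401), and Cdc20, at -0.21 (adjusted p = 0.178), was not called.

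The mitotic kinases and survivin (Birc5) had 4 of 5 called. Aurkb, the kinase of the chromosomal passenger complex, was 4.00, 4.34, 3.65 and 3.75 in WT and 2.81, 3.17, 2.99 and 2.48 in KO, a log2 change of -1.07 ± 0.18 (SE, adjusted p = 0.00989). Plk1, a kinase needed from mitotic entry to cytokinesis, was 5.06, 5.10, 4.23 and 4.20 in WT and 3.33, 3.81, 3.76 and 3.42 in KO (-1.07, adjusted p = 0.0166). The pairs of WT mice were again apart, and the lower pair still lay above every KO mouse. Aurka, the kinase of the spindle poles, changed by -0.66 (adjusted p = 0.0223) and Melk by -0.60 (adjusted p = 0.0115). Birc5, the partner of Aurkb, had a log2 change of -0.42 (adjusted p = 0.207) with overlapping groups.

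Of the 7 genes of the kinetochore, which ties chromosomes to the spindle, and its checkpoint, 6 were called. Nuf2 had the smallest adjusted p of all members. It was 4.16, 4.80, 3.84 and 3.70 in WT and 2.25, 2.53, 2.31 and 2.03 in KO, a log2 change of -1.85 ± 0.22 (SE, adjusted p = 0.0060). Its partner in the same complex, Ndc80, was 4.33, 4.95, 4.38 and 4.65 in WT and 2.98, 3.95, 3.62 and 3.21 in KO (-1.13, adjusted p = 0.0122). Both subunits were lower in every KO mouse. Cenpe, a kinetochore motor, was 4.03, 4.13, 3.88 and 3.85 in WT and 2.53, 3.42, 3.16 and 2.98 in KO (-0.95, adjusted p = 0.0107). The checkpoint kinase genes Bub1 (-0.59, adjusted p = 0.0189) and Bub1b (-0.42, adjusted p = 0.0269) and the kinetochore protein Cenpf (-0.38, adjusted p = 0.0443) changed less. Ttk, the kinase at the head of the checkpoint, had a log2 change of -0.38 (adjusted p = 0.153).

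The spindle motors and midzone proteins had 7 of 8 called. Tpx2, which starts microtubules at the spindle and activates Aurka, was 5.41, 5.43, 4.95 and 4.96 in WT and 3.20, 4.37, 3.39 and 2.92 in KO, a log2 change of -1.72 ± 0.28 (SE, adjusted p = 0.00956). Prc1, which bundles the microtubules of the midzone, was 4.48, 4.76, 4.02 and 4.13 in WT and 2.63, 3.48, 3.11 and 2.63 in KO (-1.38, adjusted p = 0.00929). Mouse 2 was the highest KO mouse in both. Kif11, the motor that separates the spindle poles, was 4.70, 4.87, 4.36 and 4.46 in WT and 3.22, 3.93, 3.76 and 2.92 in KO (-1.14, adjusted p = 0.0123). Kif23, a midzone motor of cytokinesis, was 4.65, 4.84, 4.26 and 4.15 in WT and 3.15, 3.61, 3.51 and 3.10 in KO (-1.13, adjusted p = 0.00877). Kif20a, another midzone motor, was 4.12, 4.11, 3.38 and 3.47 in WT and 2.82, 2.99, 2.94 and 2.65 in KO (-0.92, adjusted p = 0.0133). The 4 KO mice were close to each other in Kif20a, and the WT mice fell into the same pairs as in Plk1. Nusap1, a microtubule-binding protein of the spindle, was 3.80, 4.03, 3.89 and 3.32 in WT and 2.76, 3.15, 3.19 and 2.62 in KO (-0.83, adjusted p = 0.0166). Kif2c, which takes microtubules apart at the kinetochore, changed by -0.58 (adjusted p = 0.0357). The chromokinesin gene Kif4, one of the 3 members whose mean lay below the level used here for dim genes (the 90th percentile of 1119 olfactory receptor genes), had a log2 change of -0.31 (adjusted p = 0.153).

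The genes of chromosome structure were split. Mki67, the antigen stained to count cycling cells, had the largest fall of all members. It was 6.67, 6.82, 6.16 and 6.32 in WT and 3.66, 5.79, 5.31 and 3.50 in KO, a log2 change of -1.93 ± 0.48 (SE, adjusted p = 0.0266). The KO mice were in 2 pairs, with mice 1 and 4 far below mice 2 and 3, and even the higher pair was below all WT mice. Top2a, the topoisomerase that untangles the copied DNA, was 6.70, 6.70, 6.27 and 6.16 in WT and 6.47, 6.56, 6.95 and 6.26 in KO, a log2 change of 0.10 (adjusted p = 0.733). Top2a was the 1 member whose row carried a fractional probe set number, as do 840 genes in all. Such a number was read here as a row that averages several probe sets, which the sources used here do not state. The separate probe sets were not examined.

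The mice kept a common order across the members. Averaged over the 36, the WT mice stood at 0.10, 0.29, -0.18 and -0.20 and the KO mice at -1.06, -0.54, -0.80 and -1.11 relative to the WT mean. All KO mice were below all WT mice, and KO mouse 2 was the closest to them. Among the 29 called members KO mouse 2 was the highest KO mouse in 25 and WT mouse 2 the highest WT mouse in 25. KO mice 4 and 1 were the lowest in 16 and 11.

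**Figure D2:**
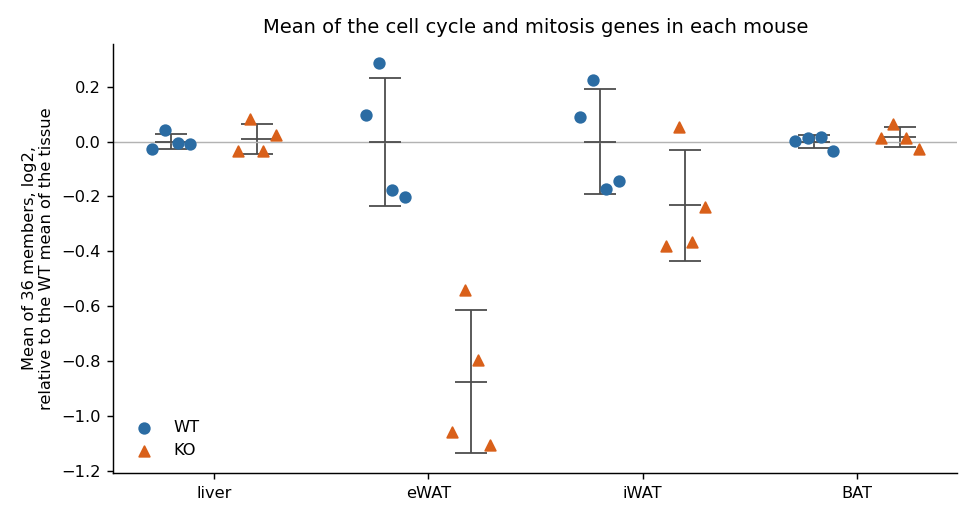
Mean log2 value of the 36 members in each mouse relative to the WT mean of the tissue (y axis), by tissue (x axis), with circles for WT, triangles for KO and bars for the mean and SD of the 4 mice. The eWAT KO mice lie between -1.11 and -0.54, below all WT mice, the iWAT groups overlap, and liver and BAT stay within 0.08 of the WT mean.

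Macrophage markers were lower in the same KO eWAT. Of 12 macrophage markers 9 were called lower (Itgam -2.49, Adgre1 -2.34, Cd68 -2.26), and Cd163 (0.14), Cx3cr1 (0.16) and Mertk (-0.27) were not called. Of 10 genes of lipid-associated macrophages 8 were called lower, led by Atp6v0d2 (-3.44) and Trem2 (-3.12). The other 2 had positive changes of at most 0.39 and were not called. Of these, 1 was higher at an unadjusted p under 0.05 by limma, where 3049 of the 24646 genes were higher. The mean of the 12 macrophage markers was between -0.07 and 0.07 in the WT mice and was -1.90, -0.27, -1.35 and -1.72 in the KO mice, so that KO mouse 2 was the closest to WT here too. WT mice, in contrast, were nearly level in the macrophage markers while their means of the members ran from -0.20 to 0.29. Progenitor markers had 3 of 6 called lower (Pdgfra -1.13, Dpp4 -1.02, Ly6a -0.68), mesothelial markers 2 of 6 (Upk3b -1.62, Msln -0.98) and endothelial markers 1 of 7 called higher (Emcn 0.42). Of 8 adipocyte markers 7 were called higher and Lep lower. B cell markers had none of 10 called by limma, with 2 at an unadjusted p under 0.05, both higher. At that level 3049 of the 24646 genes were higher and 4289 lower. In whole tissue fewer cells of a type and less RNA per cell cannot be told apart, and the part of these cell types in the fall of the members was not tested. The macrophage mean of each array, which in these arrays runs close to genotype, was also used as a covariate. No gene of the table was then called, and the 36 members had a median log2 change of -0.45.

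**Figure D3:**
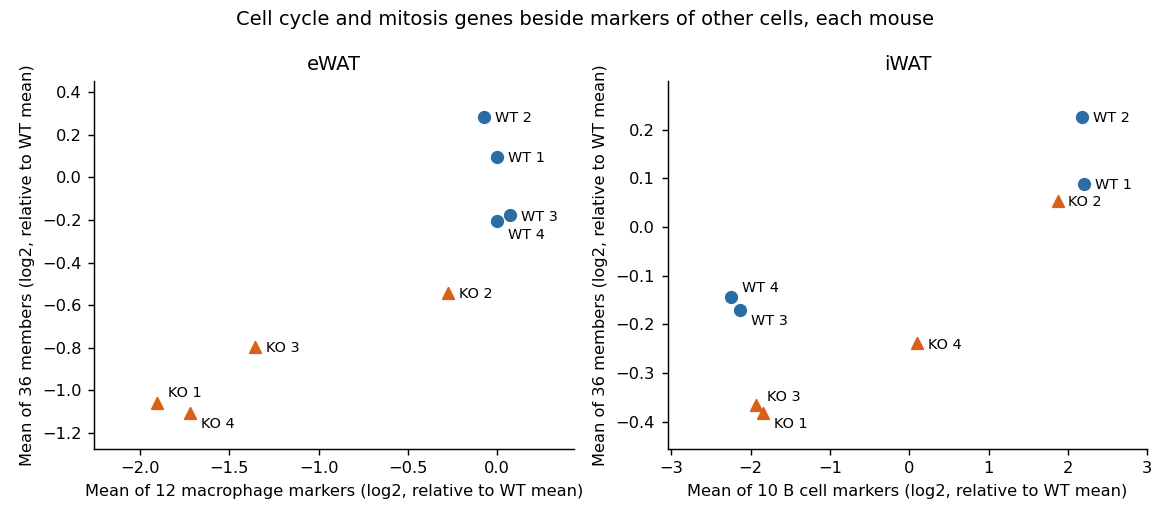
Mean of the 36 members (y axis) against the mean of 12 macrophage markers in eWAT (left, x axis) and of 10 B cell markers in iWAT (right, x axis), each point 1 mouse (circles WT, triangles KO) and both axes in log2 relative to the WT mean of the tissue. In eWAT the KO mice with the lowest macrophage mean have the lowest member mean, and in iWAT WT mice 1 and 2 and KO mouse 2 are highest on both axes.

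Genes of the cell cycle outside the members also fell in eWAT. Of 37 other S phase genes 16 were called lower, with the largest changes in Rrm1, the other subunit of ribonucleotide reductase (-1.23, adjusted p = 0.0103), the histone chaperone Asf1b (-1.06, adjusted p = 0.0060) and the clamp loader subunit Rfc4 (-1.0, adjusted p = 0.0152). The gene Ung, an enzyme that removes uracil from DNA, was the 1 called higher (0.29, adjusted p = 0.0422) and is named after its value was seen. Of 52 other G2 and M phase genes 25 were called lower and none higher, led by the cytokinesis gene Ect2 (-1.73, adjusted p = 0.0102), Arhgap11a (-1.72, adjusted p = 0.0146) and the condensin subunit Ncaph (-1.21, adjusted p = 0.00538). Their median log2 changes were -0.28 and -0.44.

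The regulators of entry into the cycle fell in part as well. Among 25 G1 cyclins, their kinases, E2F and RB genes, 9 were called lower, with the largest changes in Cdk6 (-1.95, adjusted p = 0.00871), which with a D cyclin opens the way to S phase, E2f8 (-1.43, adjusted p = 0.00823), a repressor of the E2F family, and Ccnd1, cyclin D1 (-0.93, adjusted p = 0.0123). Cdk6 was 6.15, 6.41, 6.24 and 6.07 in WT and 4.00, 5.25, 4.24 and 3.57 in KO. Among 16 CDK inhibitors and p53 targets, many but not all of whose products hold the cycle back, 5 were called lower and 1 higher. The largest fall was that of Cdkn1a, which encodes p21 and is also expressed by cells that do not divide, at -2.07 ± 0.41 (SE, adjusted p = 0.0134), followed by the p53 inhibitor Mdm2 (-1.12, adjusted p = 0.00823) and the Cdk1 inhibitor kinase Wee1 (-1.08, adjusted p = 0.0197). Cdkn1a was 7.93, 8.14, 8.16 and 8.02 in WT and 5.24, 7.44, 5.89 and 5.38 in KO. Activators and inhibitors of the cycle were thus both among the genes that fell, with KO mouse 2 the highest of the KO mice in Cdk6 and Cdkn1a. The gene called higher, Cdkn2c, encodes p18, an inhibitor of Cdk4 and Cdk6 (0.69, adjusted p = 0.0397), and is named after its value was seen.

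**Figure D4:**
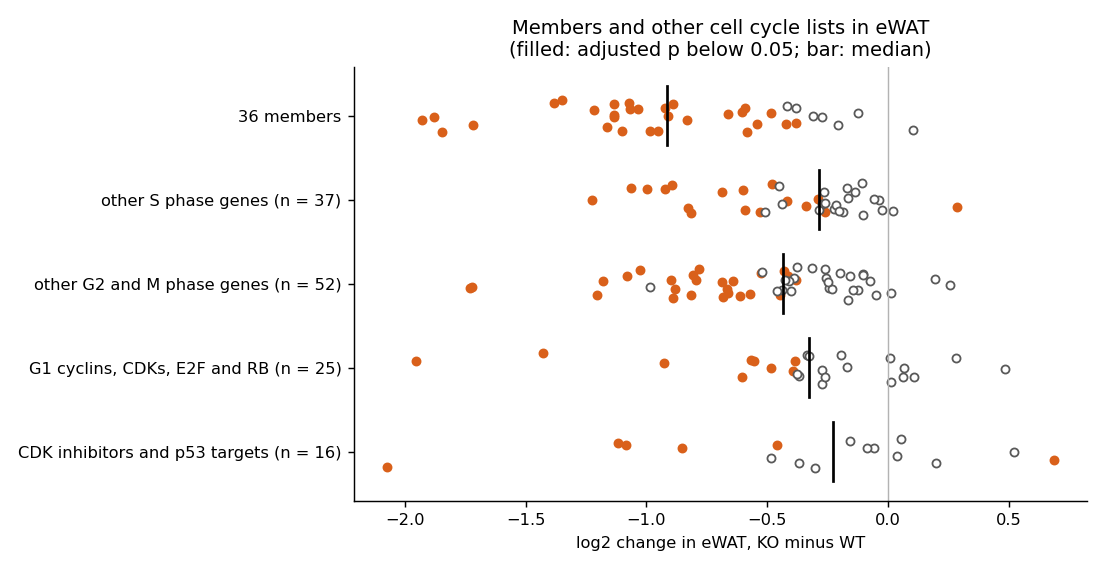
Log2 change in eWAT, KO minus WT (x axis), of the 36 members and of 4 other lists of cell cycle genes (rows), 1 point per gene, filled where the adjusted p was below 0.05, with a bar at the median of each list. Filled points lie left of 0 except Ung and Cdkn2c, and the medians run from -0.92 for the members to -0.23 for CDK inhibitors and p53 targets.

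In iWAT no member was called by limma, and no gene of the table was called lower (0%) or higher (0%). Of the 36 members 31 had a negative log2 change, with a median of -0.19 against 0.02 over all genes and a range of -0.75 to 0.04. Of these 6 had an unadjusted p under 0.05, all lower, where 8.34% of all genes were lower and 7.09% higher at that level, and the methods' t-test gave 3 without adjustment and none with it. In 2 members, Tpx2 and Birc5, the 4 KO mice lay below all WT mice, as they did in 3.86% of all genes.

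The members with the smallest p in iWAT were Pcna, Nuf2, Tpx2, Mcm5 and Birc5. Pcna was 7.13, 7.26, 6.97 and 7.37 in WT and 6.64, 7.04, 6.68 and 6.85 in KO, a log2 change of -0.38 ± 0.13 (SE, adjusted p = 0.251). Nuf2 was 3.14, 3.40, 2.85 and 3.42 in WT and 2.46, 3.12, 2.68 and 2.78 in KO (-0.45, adjusted p = 0.283). In both, KO mouse 2 was level with part of the WT group. Tpx2 was 3.58, 3.91, 3.47 and 3.43 in WT and 3.08, 3.40, 3.43 and 2.92 in KO (-0.39, adjusted p = 0.289), the highest KO and the lowest WT mouse being nearly level. Mcm5, with the largest difference of the list in this depot, was 4.84, 5.25, 4.26 and 4.64 in WT and 3.26, 4.73, 3.84 and 4.15 in KO (-0.75, adjusted p = 0.303). Birc5 was 2.81, 2.80, 2.64 and 2.72 in WT and 2.63, 2.63, 2.28 and 2.37 in KO (-0.27, adjusted p = 0.304). Mki67 (-0.71) and Ccnb2 (-0.71), which had the largest falls in eWAT, came next to Mcm5 in size here, with SEs of 0.33 and 0.34.

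Lymph node content of the iWAT samples differed widely between mice. The mean of 10 B cell markers, relative to its WT mean, was 2.20, 2.17, -2.13 and -2.24 in the WT mice and -1.84, 1.87, -1.93 and 0.10 in the KO mice. T cell markers split the mice the same way (1.29, 1.70, -1.36 and -1.63 in WT and -1.72, 1.43, -1.88 and -0.91 in KO), and so did Ccl21a of the lymph node stroma, from 4.22 to 9.97 across the WT mice. The member mean was highest in the same 3 mice, WT mice 1 and 2 (0.09 and 0.23) and KO mouse 2 (0.05). It was -0.17 and -0.14 in WT mice 3 and 4, and -0.38, -0.36 and -0.24 in KO mice 1, 3 and 4. The mean of 5 markers of germinal centre B cells, the dividing B cells of a node, was -0.02, 0.18, -0.05 and -0.11 in WT and -0.17, 0.31, -0.20 and 0.10 in KO. It was highest in KO mouse 2 and WT mouse 2, of the 3 mice just named, and 2 of the 5 genes were above the level for dim genes. With the B cell mean as a covariate the median of the members was -0.17. Without the 4 arrays highest in B cell markers, which left WT mice 3 and 4 and KO mice 1 and 3 and was chosen after seeing the data, it was -0.16. No member was called in either. Macrophage markers in iWAT had none of 12 called and 7 with an unadjusted p under 0.05, all lower. At that level 8.34% of all genes were lower and 7.09% higher. The mean of the 12 markers was -0.19, -0.51, 0.49 and 0.22 in WT and -1.06, -0.34, -0.96 and -0.92 in KO. The part of lymph node and of macrophages in these values was not tested beyond this.

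Other cell cycle lists had no call in iWAT either. The smallest p of the CDK inhibitors was that of Cdkn2c, with 4.73, 4.42, 4.29 and 4.83 in WT and 5.71, 5.30, 5.99 and 5.66 in KO, a log2 change of 1.10 ± 0.17 (SE, adjusted p = 0.221). All 4 KO mice were above the WT mice, and Cdkn2c was thus higher in KO in both white depots, called in eWAT only. The smallest p of the other lists were those of Ncaph (-0.36, adjusted p = 0.233), Rfc4 (-0.60, adjusted p = 0.233) and the transcription factor gene E2f3 (-0.37, adjusted p = 0.251). Of the 37 other S phase genes 5 had an unadjusted p under 0.05, all lower, and of the 52 other G2 and M phase genes 4, all lower. Of the 25 G1 cyclins, their kinases, E2F and RB genes 5 had, all lower, and 24 were negative (median -0.21). Of the 16 CDK inhibitors and p53 targets 5 were lower and 1 higher. At that level 8.34% of all genes were lower and 7.09% higher.

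In BAT the members did not move as a group. None was called by limma, where 0.0243% of all genes were called lower and 0.00406% higher. The median log2 change was 0.01 (-0.02 after quantile normalization), 17 of 36 were negative, and the mean of the members was -0.03 to 0.02 in WT mice and -0.03 to 0.07 in KO mice. Of the members 3 had an unadjusted p under 0.05, 2 higher and 1 lower, where the shares of all genes were 5.25% higher and 7.44% lower, and the methods' t-test gave 3 without and none with adjustment.

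The members with the smallest p in BAT were Top2a, Bub1b, Mcm3, Tyms and Kif11. Top2a was 5.31, 5.14, 5.27 and 5.19 in WT and 5.62, 5.63, 5.80 and 5.30 in KO, a log2 change of 0.36 ± 0.11 (SE, adjusted p = 0.208). KO mouse 4 lay within the WT group and the other KO mice above it. Bub1b was 2.50, 2.41, 2.31 and 2.24 in WT and 2.86, 2.52, 2.46 and 2.97 in KO (0.34, adjusted p = 0.289). KO mice 1 and 4 stood highest. Mcm3 was 3.06, 3.07, 2.95 and 2.73 in WT and 2.72, 2.80, 2.71 and 2.56 in KO (-0.25, adjusted p = 0.319). Tyms was 2.80, 2.77, 2.76 and 3.01 in WT and 2.73, 2.79, 2.54 and 2.41 in KO (-0.21, adjusted p = 0.441). Kif11 was 2.07, 2.15, 2.05 and 2.26 in WT and 2.42, 2.41, 2.26 and 2.06 in KO (0.16, adjusted p = 0.567). All of these overlapped between the genotypes. In BAT 19 of the 36 members had a mean above the level for dim genes. Muscle markers varied strongly between BAT samples (Acta1, Myh4 and others, mean -2.05 to 2.57 in WT and -2.0 to 2.69 in KO), and with their mean as a covariate the median of the members stayed at 0.01.

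Other cell cycle genes had no call in BAT. The mean of 52 other G2 and M phase genes was -0.02 to 0.03 in WT mice and 0.05 to 0.11 in KO mice, so that all KO mice lay above all WT mice, as they did after quantile normalization and with equal array medians. Their median log2 change was 0.05 (0.00 over all genes), 39 were positive, and 6 had an unadjusted p under 0.05, all higher. At that level 5.25% of all genes were higher and 7.44% lower. Of the 52 genes only 21 had a mean above the level for dim genes. The mean of 8 male germ cell markers, 2 of them above that level, was likewise higher in all KO mice (0.04 to 0.35) than in any WT mouse (-0.05 to 0.03). That of 10 B cell markers, 4 above the level, overlapped (-0.05 to 0.06 in KO, -0.09 to 0.07 in WT). Among the genes with the smallest p of their list were Btg1, a gene that slows proliferation (-0.59, adjusted p = 0.125), the checkpoint gene Mad2l1 (0.42, adjusted p = 0.137) and the E2F partner Tfdp1 (-0.65, adjusted p = 0.152).

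In liver no member was called either, where 0.499% of all genes were called lower and 0.162% higher. The median log2 change was 0.01 for the members and for all genes alike (-0.02 for the members after quantile normalization), 17 of 36 were negative, and the member mean was -0.03 to 0.04 in WT mice and -0.04 to 0.08 in KO mice. None had an unadjusted p under 0.05 by limma, where the shares of all genes were 7.48% lower and 5.79% higher, and 1 had by the methods' t-test (none after adjustment). Cdc20 was the 1 member with all KO mice above all WT mice, as 3.62% of all genes were.

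The members with the smallest p in liver were Mcm2, Mki67, Cdc20, Ccnb2 and Pcna. Mcm2 was 3.37, 3.34, 3.50 and 3.56 in WT and 3.30, 3.44, 3.14 and 3.13 in KO, a log2 change of -0.19 ± 0.09 (SE, adjusted p = 0.407). Mki67 was 2.09, 2.42, 2.19 and 2.24 in WT and 2.20, 2.72, 2.41 and 2.52 in KO (0.23, adjusted p = 0.431). The direction of these small differences thus varied between members. Cdc20 was 3.88, 3.92, 3.92 and 3.76 in WT and 3.95, 4.11, 3.95 and 4.03 in KO (0.14, adjusted p = 0.455). Ccnb2 was 2.81, 3.14, 2.97 and 2.57 in WT and 2.67, 2.77, 2.72 and 2.45 in KO (-0.22, adjusted p = 0.473). Its groups overlapped, as did those of the other members here except Cdc20. Pcna was 6.25, 6.36, 6.15 and 6.24 in WT and 6.09, 6.22, 6.12 and 6.03 in KO (-0.14, adjusted p = 0.479). In liver 18 of the 36 members had a mean above the level for dim genes.

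Among the other cell cycle lists in liver, 1 gene was called. Ccnd2, cyclin D2, was 3.79, 3.55, 3.53 and 3.89 in WT and 2.62, 2.99, 2.67 and 2.81 in KO, a log2 change of -0.91 ± 0.11 (SE, adjusted p = 0.00565). All KO mice were below all WT mice. Of the 25 genes of its list (G1 cyclins, their kinases, E2F and RB genes) 6 were lower and 1 higher at an unadjusted p under 0.05. At that level 7.48% of all genes were lower and 5.79% higher. The mean of the 25 was -0.02 to 0.01 in WT and -0.13 to -0.06 in KO mice, so that all KO mice lay below all WT mice. This mean was not computed after other normalizations. Of the other lists the smallest p were those of Arhgap11a (-0.21, adjusted p = 0.256), Wee1 (-0.36, adjusted p = 0.321) and Rfc5 (0.21, adjusted p = 0.342). Markers of endothelial cells, which share the tissue, had 3 of 7 called lower in the same KO livers, with a mean of -0.03 to 0.06 in WT and -0.78 to -0.22 in KO, and their part in the value of Ccnd2 was not tested.

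Set side by side, the change of every member was lower in eWAT than in liver and than in BAT, and for 35 of 36 it was lower in eWAT than in iWAT. Of the 29 members called in eWAT, 26 had a negative change in iWAT (median -0.23), 15 in liver (median 0.00) and 13 in BAT (median 0.02). In liver and BAT all 36 changes were under 0.5 in size, and in iWAT 32 were. Fewer members were above the level for dim genes in liver (18) and BAT (19) than in iWAT (28) and eWAT (33). That limits the falls that could be seen in liver and BAT. Within eWAT the 18 brighter members had a median log2 change of -1.13 and the 18 dimmer members one of -0.56. The tissues came as separate tables, whether they were normalized together is not given in the sources used here, and the mouse numbers are used in all 4, so these are values of each comparison and the difference between tissues was not tested.

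**Figure D5:**
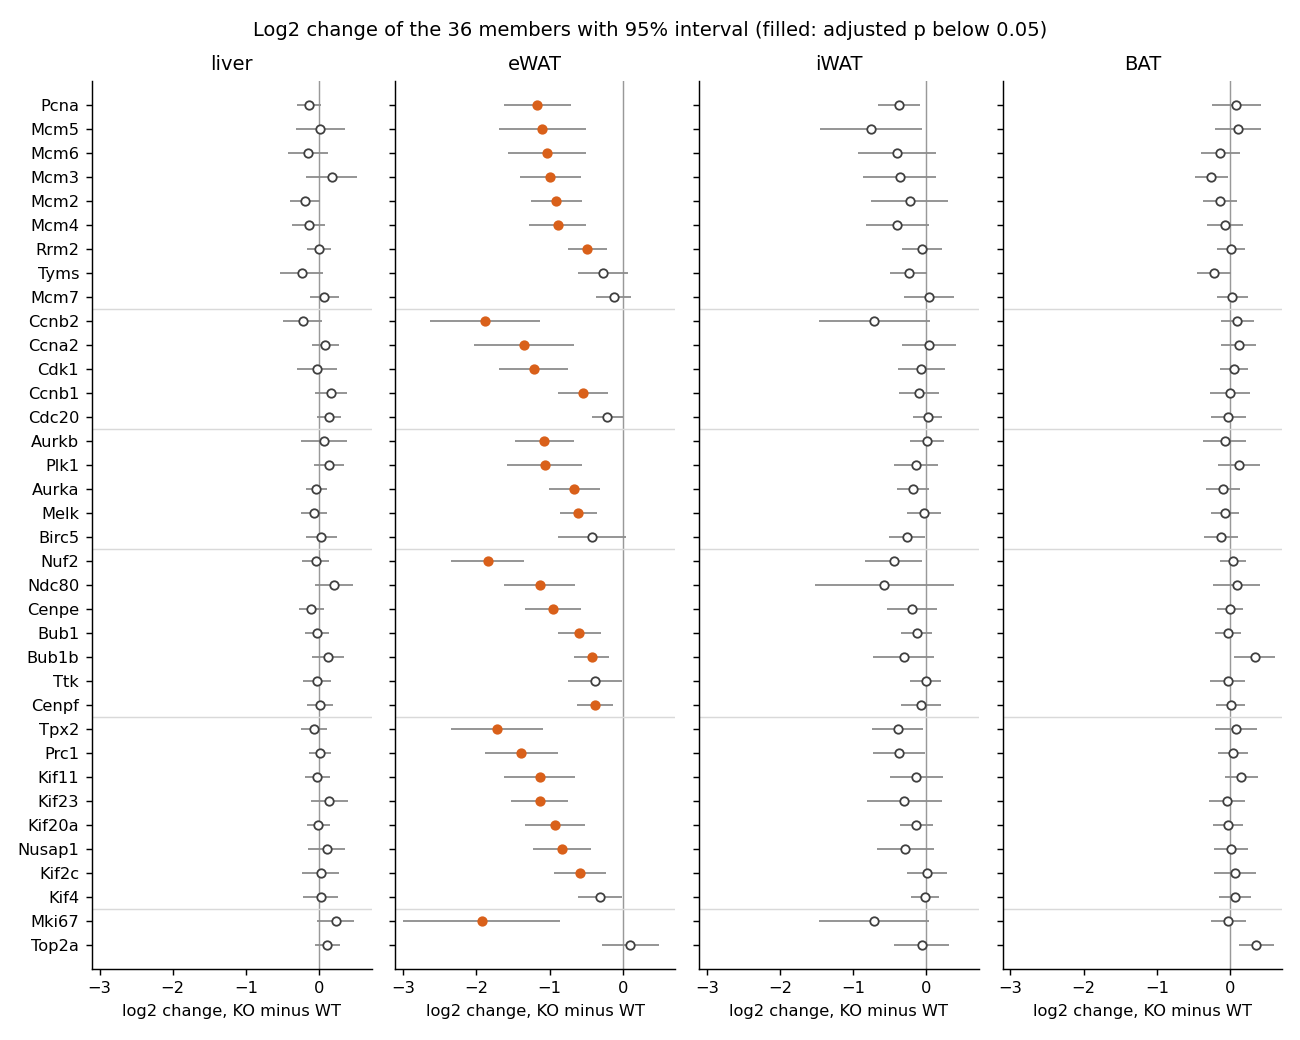
Log2 change of the 36 members, KO minus WT (x axis), with 95% intervals from limma in liver, eWAT, iWAT and BAT (panels), genes ordered by role with grey lines between roles (replication, cyclins with Cdk1 and Cdc20, kinases and survivin, kinetochore, spindle, chromosome structure). Filled points, with adjusted p below 0.05, are found in eWAT only, 29 of 36, while the liver and BAT points lie near 0.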

How the data were processed

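The authors deposited log2 intensities of Affymetrix Mouse Gene 2.1 ST arrays (100 ng of total RNA, Trizol, biotin), 1 table per tissue and 1 value per gene symbol. The rows of 840 genes carry a fractional probe set number, read here as an average over probe sets. An average with a whole number would not be seen this way. The normalization and the summary of probes are not given in the sources used here. After 1 or 2 rows without a gene name were dropped, 24646 genes remained per table. Each tissue was fitted alone, KO against WT, in limma 3.58.1 under R 4.3.3 (lmFit and eBayes, no covariate), with Benjamini-Hochberg adjustment over all genes and a threshold of 0.05. The fit was tested on simulated data. The members and lists were chosen with earlier results of these data known, so lists are given by counts and medians without a test. Values of every mouse are given for the 20 called members with the largest change, or for the 5 with the smallest p where fewer than 3 were called, and of other lists the 3 largest called changes or the smallest p. Some genes of these lists are not reported here by name. Alternatives were quantile normalization, equal array medians, dim genes left out, array weights, a robust prior with a trend, the t-test of the methods, a block for the replicate number, leaving out each array, and marker means as covariates. The 4 mice per group limit the precision, and labels do not say whether they came from separate litters. Promoters were read from RefSeq (GRCm38.p6), where 31 members matched.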

Additional observations from a re-analysis of the deposited data

Results flagged for a closer look

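Among 134 groups of 4 mice examined (means of the members and their roles, members given mouse by mouse, and Gpr146), 4 had a mouse set apart from the other 3 by a gap past Dixon's critical value for the group's range, where chance alone sets about 1 in 20 apart. In eWAT, KO mouse 2 stood above the other KO mice in Cdk1 (3.39 against 2.46 to 2.62) and in Mcm2 (3.71 against 2.99 to 3.11). In liver, the mean of the 9 replication genes in KO mouse 2 was 0.13 relative to WT, against -0.14 to -0.12 in the other KO mice. In BAT, Tyms in WT mouse 4 was 3.01, against 2.76 to 2.80 in the other WT mice. No member lay wholly lower in one tissue and wholly higher in another.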

How the results depend on the processing

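In eWAT the count of members called lower (29) was 26 to 29 after quantile normalization, with equal array medians, without dim genes, under array weights, under a robust prior with a trend and with the replicate number as a block (26). It was 16 to 28 when 1 mouse was left out, the lowest without WT mouse 2 and the next, 19, without KO mouse 1, and 0 by the methods' t-test after adjustment (29 without). With the macrophage mean as a covariate, chosen after seeing the data, it was 0 and the median -0.45, and 0 of all genes were called, against 3758 in the main comparison. The median of the members (-0.92) was -1.07 to -0.83 with 1 mouse left out. The 20 called members with the largest change kept their direction in the 340 values computed for them, of which 58 lost the call, 20 under the t-test after adjustment, 20 under the macrophage covariate and 18 with 1 mouse left out. In liver, iWAT and BAT the count stayed 0 under all alternatives but the methods' t-test without adjustment, which gave 1, 3 and 3, and 0 with any 1 mouse left out. The medians with 1 mouse left out were -0.03 to 0.02 in liver, -0.24 to -0.11 in iWAT and -0.005 to 0.03 in BAT, where quantile normalization (-0.019) and leaving out dim genes (-0.021) turned the sign of a median near 0. Correlations between the deviations of mice of the same number were -0.06 to 0.11 in liver, 0.00 to 0.16 in eWAT, -0.38 to 0.67 in iWAT and 0.01 to 0.22 in BAT, with 4, 5, 5 and 4 of 8 arrays correlating best with their own number. Between WT and KO mice of different numbers they were -0.10 to 0.09 in liver, -0.13 to 0.09 in eWAT, -0.63 to 0.65 in iWAT and -0.37 to 0.44 in BAT. In no tissue were all correlations of the same number above 0.1, and the numbers were not taken as pairs. These values cannot settle whether mice of the same number share a batch or litter. In liver, eWAT and iWAT, mouse 2 had the highest mean of the members in both genotypes, and in BAT it did so in KO only. The replicate block changed no call on a count in liver, iWAT or BAT. Dim genes limit the result, since 33, 28, 19 and 18 of the 36 members lay above the level for dim genes in eWAT, iWAT, BAT and liver.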

Other observations

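Most but not all erythroid markers were higher in the eWAT in which the cell cycle genes fell. Of 7 erythroid markers 5 had a positive change and 2 a negative one. By limma 2 were called higher, among them the globin gene Hbb-bt (1.17, adjusted p = 0.0215), against 4.57% of all genes. Without adjustment 4 were higher and 1 lower at a p under 0.05, against 3049 higher and 4289 lower of the 24646 genes. The mean of the list was -0.27 to 0.23 in WT and 0.24 to 0.60 in KO mice, so that all KO mice lay above all WT mice. Il7r, counted here among T cell markers, changed by -3.47 (adjusted p = 0.0267), while the defining genes Cd3d, Cd3e and Cd3g had changes of 0.09, -0.24 and 0.18 and were not called. S1pr2, listed with germinal centre B cells, changed by -1.53 (adjusted p = 0.0103).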
